A study of Mus musculus with 12 samples.

Results

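The Hox cofactors of the Meis and Pbx families were followed across 2 mouse leukaemias that were either wild-type or mutant for Msi2. The members are Meis1, Meis2, Meis3, Pbx2, Pbx3, Pbx4, Pknox1 and Tgif1, 8 of the 18193 genes named on the array, and they were chosen by name, as every probe set whose only gene symbol is one of these. They had 19 probe sets, a probe set being a group of short probes that together report 1 transcript. Of these, 15 passed a filter on dim values, which kept a probe set above 16 intensity units (log2 of 4) on at least 3 of the 12 arrays. This left 7 of the 8 genes for testing, since the only Meis3 probe set did not pass.

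These proteins belong to the TALE class of homeodomain proteins, named for a three-amino-acid loop extension in the homeodomain. Pbx proteins bind DNA next to Hox proteins and sharpen the choice of site. Meis and Pknox (Prep) proteins join Pbx partners, hold them in the nucleus and bind DNA themselves, whereas Tgif1 is a repressor that recognises the same kind of site as Meis proteins and also binds Smad proteins. In the blood system Hoxa9, Meis1 and Pbx3 are known to act together, and MLL fusion proteins are known to keep Hoxa9 and Meis1 switched on.

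Leukaemia was started in KLS stem and progenitor cells of donor mice, wild-type or Msi2 Gt/Gt, the latter carrying the trapped allele of Msi2 on both chromosomes. Msi2 codes for Musashi2, an RNA-binding protein. The strain is given as B6;CB-Msi2Gt(pU-21T)2Imeg for all arrays, wild-type ones included. Cells infected with MLL-AF9 gave de novo acute myelogenous leukaemia (AML), and cells infected with BCR-ABL/NUP98-HOXA9 gave blast crisis chronic myelogenous leukaemia (bcCML). After transplantation, leukaemic stem cells were sorted as Lin-Sca1-ckit+ cells from AML and as Lin- cells from bcCML, with no treatment and with age not given, and 3 arrays were made for each of wild-type AML, Msi2 mutant AML, wild-type bcCML and Msi2 mutant bcCML. The driver and the sort differ together between the leukaemias, so their effects cannot be told apart. The titles name biological replicates, but nothing states that they came from separate mice, and p-values measure only the spread between these samples.

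Values are GCRMA intensities on a linear scale. The lowest value in the table was 4.49 units, a floor on which dim probe sets lie, and array medians ran from 13.1 to 13.8 units. Msi2, the trapped gene, lay between 181 and 430 units in wild-type and between 52.9 and 86.9 in mutant AML, and between 2583 and 4579 in wild-type and 487 and 721 in mutant bcCML, lower on every mutant array than on any wild-type array of the same leukaemia. Kit lay between 169 and 435 units in AML and between 78.2 and 546 in bcCML. The 4 measured T cell markers stayed below 16 units on every array. The summed level of 3 mast cell and basophil markers varied between arrays of a group. It ran from 507 to 970 units in wild-type and from 645 to 2360 in mutant AML. In bcCML it ran from 437 to 4091 units in wild-type and from 70.5 to 2455 in mutant cells. Intensities depend on each probe's sequence, so levels are compared between arrays and never between genes, and a smaller share of expressing cells cannot be told apart from less RNA per cell.

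**Figure D1:**
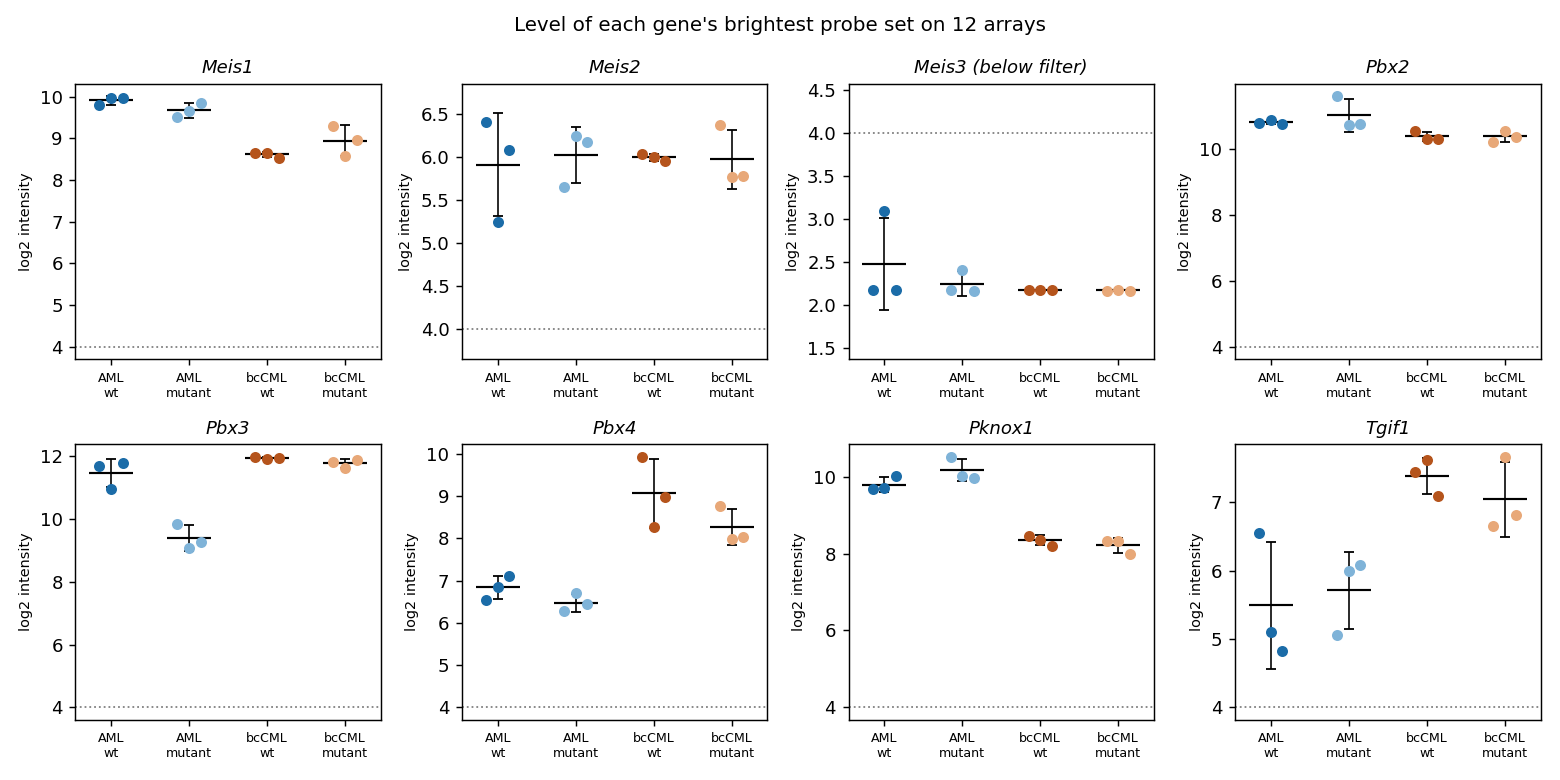
Log2 intensity of each member on the 12 arrays (points), with the mean and SD of 3 arrays as lines, for wild-type (wt) and Msi2 mutant AML and bcCML. The dotted line is the filter level of 4. Pbx3 is low in mutant AML alone, Meis1 and Pknox1 are higher in AML, Pbx4 and Tgif1 are higher in bcCML, and Meis3 lies under the filter.

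The first question is what loss of Msi2 did to these genes in AML. Pbx3, which encodes a Pbx partner of Hox proteins, fell 4.24-fold, and no other member passed the test. Its brighter probe set measured 3334, 1983 and 3519 units in wild-type AML (arrays 1 to 3) and 927, 536 and 617 units in mutant AML. The highest mutant array was below the lowest wild-type array. Means were 2945 ± 838 and 693 ± 207 units (SD, n = 3), a log2 difference of -2.08 ± 0.25 (SE; limma adjusted p = 0.00514). The second Pbx3 probe set measured 1194, 719 and 1230 units in wild-type and 288, 134 and 126 in mutant AML. It too showed no overlap, with a log2 difference of -2.59 ± 0.32 when every probe set was fitted on its own (limma adjusted p = 0.00595, against 0.0055 for the brighter one). So 1 of 7 members was called lower, where 1.14% of the 10817 genes tested were, and 2 of 15 member probe sets were called, where 1.1% of the 19413 probe sets tested were. Pbx3 was the 1 member whose AML arrays did not overlap, with 11.6% of genes lower in this way. The call was kept on leaving out any one of the 12 arrays, with log2 differences from -2.35 to -1.92 and adjusted p up to 0.0322. It ended when the 6 AML arrays were fitted alone (SE 0.32, limma adjusted p = 0.153). In that fit 0 genes passed and 1207 had an unadjusted p under 0.05 by limma. The SE of 0.25 comes from a spread shared with the bcCML arrays. On those Pbx3 varied less (SD of log2 0.030 in wild-type and 0.14 in mutant) than in AML (0.46 and 0.41).

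**Figure D2:**
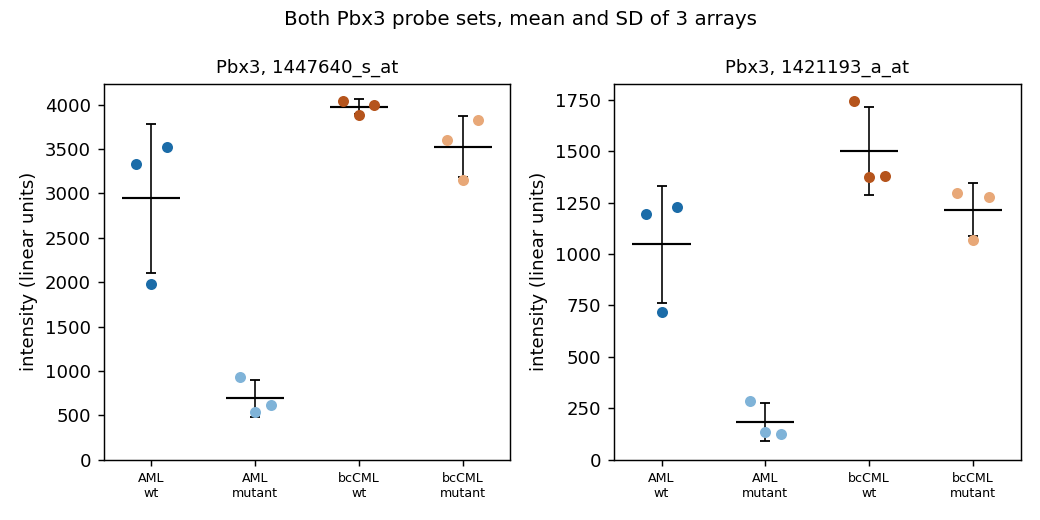
Intensity in linear units of both Pbx3 probe sets on each array (points), with the mean and SD of 3 arrays, by group. On both, the 3 mutant AML arrays lie below every other array, at 536 to 927 units on the brighter probe set and 126 to 288 on the other.

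Among 5 progenitor markers, 3 varied between the AML arrays in the way Pbx3 did and 2 did not. Cd34, a surface sialomucin of stem and progenitor cells, measured 1602, 304 and 1800 units on the wild-type and 312, 101 and 101 on the mutant arrays. Flt3, a receptor kinase of early progenitors, measured 642, 149 and 674 and then 147, 16.6 and 42.5 units. Gata2, a transcription factor of stem and progenitor cells, measured 2453, 434 and 4901 and then 881, 187 and 530 units. In these 3, as in Pbx3, wild-type array 2 was the lowest wild-type and mutant array 1 the highest mutant array. For Cd34 and Gata2 these arrays crossed, so the genotypes overlapped. For Pbx3 they did not, nor for Flt3, though its values nearly met (149 and 147 units). Kit, the receptor used in the sort, measured 332, 195 and 169 units and then 435, 245 and 242 units, so that its lowest wild-type array was array 3 and the genotypes overlapped. Myb, a transcription factor of immature blood cells, measured between 20471 and 26222 units on all 6 arrays, without the order seen in Pbx3. Over all 5 markers, a sum that Myb dominates, the summed level lay between 22917 and 29525 units in wild-type and between 21313 and 27139 in mutant AML. Neutrophil granule markers, 5 in number (Ltf, Ngp, Camp, Mmp8 and Lcn2), had summed levels of 30314 to 41110 units in wild-type and 48877 to 74506 units in mutant AML. Camp carried this sum (16195 to 21551 and 26078 to 47337 units), and Ltf was also higher on all mutant arrays. Ngp and Lcn2 overlapped between the genotypes, and Mmp8 went the other way (97.1 to 288 and 9.92 to 23.9 units). The part of the progenitor and neutrophil markers in the Pbx3 result was not tested. Without wild-type array 2 the Pbx3 difference was -2.35 (log2; limma adjusted p = 0.00268) and without mutant array 1 it was -2.31 (adjusted p = 0.0064). These arrays lay closest to the other genotype, so leaving either out had to enlarge the difference. The values therefore do not bear on the part of the markers.

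**Figure D3:**
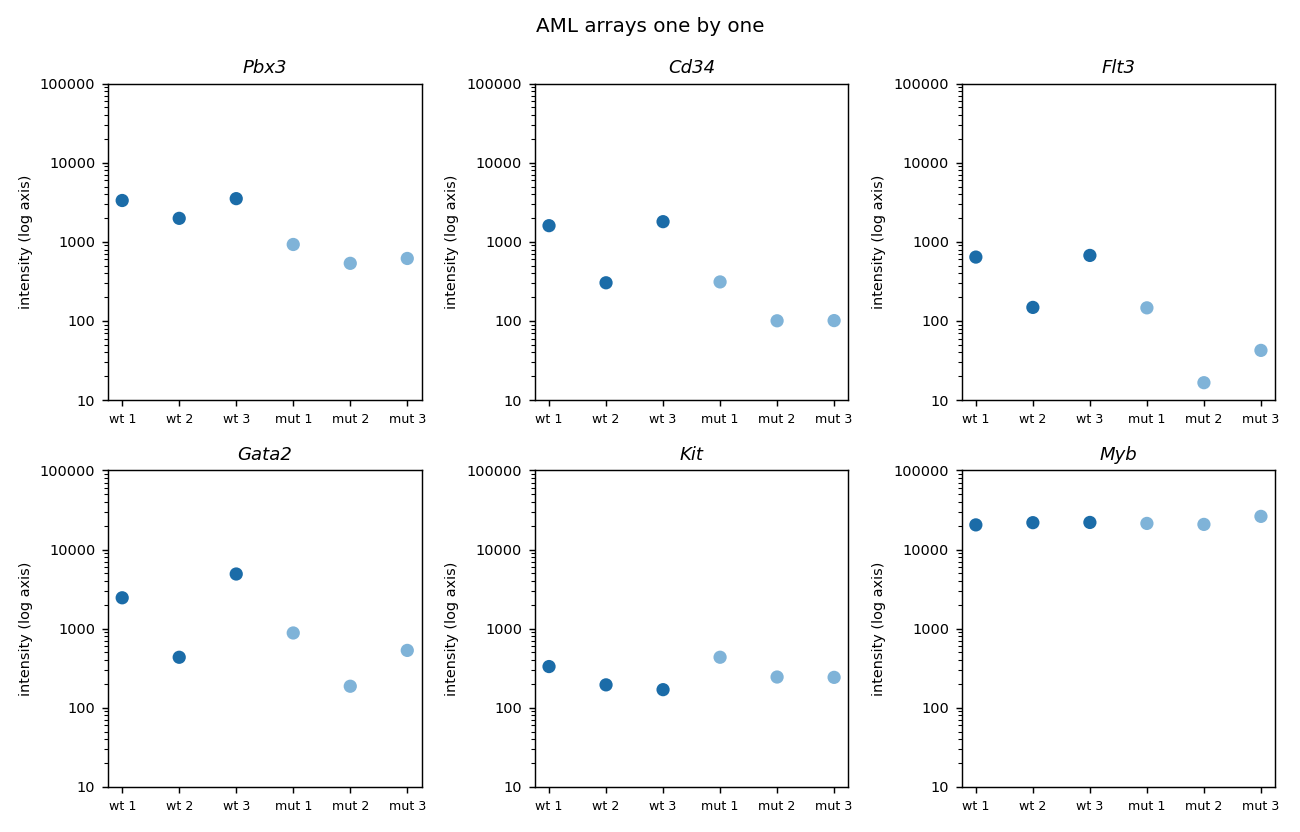
Intensity (log axis) of Pbx3 and of the progenitor markers Cd34, Flt3, Gata2, Kit and Myb on the 3 wild-type (dark) and 3 Msi2 mutant (light) AML arrays. For Pbx3, Cd34, Flt3 and Gata2, wild-type array 2 is the lowest wild-type and mutant array 1 the highest mutant array. Kit and Myb do not share this order.

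The remaining members did not pass in AML. Meis1, the Hox partner that MLL fusions keep on, measured 890, 1009 and 999 units on wild-type and 729, 805 and 929 on mutant arrays with its brightest probe set. These ranges overlapped, and the log2 difference was -0.24 ± 0.18 (limma adjusted p = 0.642; 95% interval -0.65 to 0.17). Its other probe sets differed by -0.076 and -0.011. Pknox1, the Prep1 partner of Pbx proteins, measured 817, 830 and 1032 units in wild-type and 1464, 1044 and 1007 in mutant AML, a log2 difference of 0.38 ± 0.18 (adjusted p = 0.394; interval -0.03 to 0.79). Mutant array 1 was the highest, and without it the difference was 0.21. Pbx2, a broadly expressed Pbx gene, measured 1778, 1866 and 1736 units in wild-type and 3110, 1681 and 1714 in mutant AML. Here too mutant array 1 stood alone: the log2 difference was 0.21 ± 0.22 with it and -0.078 without it (adjusted p = 0.766 and 0.847). On that array the summed level of 9 monocyte markers was 11532 units, against 33828 and 46811 on the other mutant arrays and 21393 to 28118 on wild-type arrays, and the summed neutrophil markers were at their highest, 74506 units, with Camp at 47337. Ltf and Ngp were also at their highest of the AML arrays there, Lcn2 (11798 units) was in between and Mmp8 was at its lowest (9.92 units). Of the monocyte markers, Itgam (66.8 units) lay above every wild-type array and Fcgr1 near the floor. The other monocyte markers were at their lowest. The part of these markers in the values of Pbx2 and Pknox1 was not tested. Pbx4 differed by -0.37 ± 0.37, Meis2 by 0.11 ± 0.29 and Tgif1 by 0.22 ± 0.46 (log2 ± SE), with 95% intervals of -1.20 to 0.47, -0.54 to 0.77 and -0.80 to 1.25. The intervals of these 6 members leave room for changes in either direction. The median over the 7 members was 0.11, beside -0.05 over all genes tested.

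On the brightest Msi2 probe set, mutant bcCML had more signal (487 to 721 units) than wild-type AML (181 to 430 units). The part of this remaining signal in the bcCML values was not tested. In bcCML the Msi2 mutation gave no call in any of the 7 members. By limma 0.139% of all genes passed, 15 in number, with 900 genes and 0 members at an unadjusted p under 0.05, and a fit with an intensity trend called 8 genes and one with the replicate number as a block 27. Pbx3 measured 4046, 3886 and 3998 units in wild-type and 3607, 3149 and 3825 in mutant bcCML. The mutant arrays lay below the wild-type arrays without overlap, on the second probe set as well (1374 to 1746 and 1066 to 1298 units), as was so for 10.1% of genes. The log2 difference was -0.18 ± 0.25 (adjusted p = 0.916), with a 95% interval from -0.73 to 0.38. This SE and interval rest on a spread shared by all groups. Pbx3 varied less in bcCML (SD of log2 0.030 in wild-type and 0.14 in mutant arrays) than in AML (0.46 and 0.41). Pbx4, a Pbx gene best known from testis, measured 973, 310 and 504 units in wild-type and 434, 255 and 264 in mutant bcCML. The ranges overlapped, and wild-type array 1 was far above the rest. The difference was -0.79 ± 0.37 with that array (adjusted p = 0.618) and -0.36 without it, and -1.19 without wild-type array 2, the lowest. Same-numbered bcCML arrays deviated together over all genes, and within each number Pbx4 was lower on the mutant array. With the number as a block the difference was -0.79 ± 0.21 and did not pass either (adjusted p = 0.353). Meis1 measured 403, 401 and 372 units in wild-type and 631, 381 and 498 in mutant bcCML, a log2 difference of 0.33 ± 0.18 (adjusted p = 0.671), which was 0.15 without mutant array 1, the highest. On the Meis1 probe set dimmest in wild-type bcCML, mutant arrays (244 to 401 units) lay above wild-type arrays (199 to 237), again without a call. The other Meis1 probe sets overlapped between the genotypes. As 10.1% of genes were parted with mutant arrays lower, such a parting alone is not read as a change of Meis1. Pknox1 was also lower on the mutant array of each number (354 and 323, 327 and 320, 296 and 253 units), by -0.13 ± 0.18 on the log2 scale without the block and -0.13 ± 0.19 with it, with no call (adjusted p = 0.917 and 0.908). Tgif1 differed by -0.34 ± 0.46, Meis2 by -0.025 ± 0.29 and Pbx2 by -0.010 ± 0.22. With the values scaled again by quantiles, the last pair changed sign, to 0.051 and 0.017. The median over the 7 members was -0.13, beside -0.02 over all genes.

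Whether Pbx3 responds differently in the 2 leukaemias was tested directly. The bcCML difference minus the AML difference was 1.90 ± 0.35 on the log2 scale and did not pass (limma adjusted p = 0.107). In this comparison 0% of the 10817 genes passed, 1014 had an unadjusted p under 0.05, and of the members only Pbx3 was among these. A limma fit with an intensity trend also called 0 genes. Without wild-type AML array 2 the value was 2.17 and passed (adjusted p = 0.0423). Averaged over both leukaemias, the Msi2 effect on Pbx3 was -1.13 ± 0.18 (adjusted p = 0.0333), 1 of 7 members called lower where 0.37% of genes were. That call was kept only without AML wild-type array 2 or 3 or AML mutant array 1. It ended without any one of the other 9 arrays, with adjusted p from 0.0514 (AML mutant array 2) to 0.0959 (bcCML wild-type array 1), and with the replicate number as a block (adjusted p = 0.0744). No other member passed for the average effect.

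**Figure D4:**
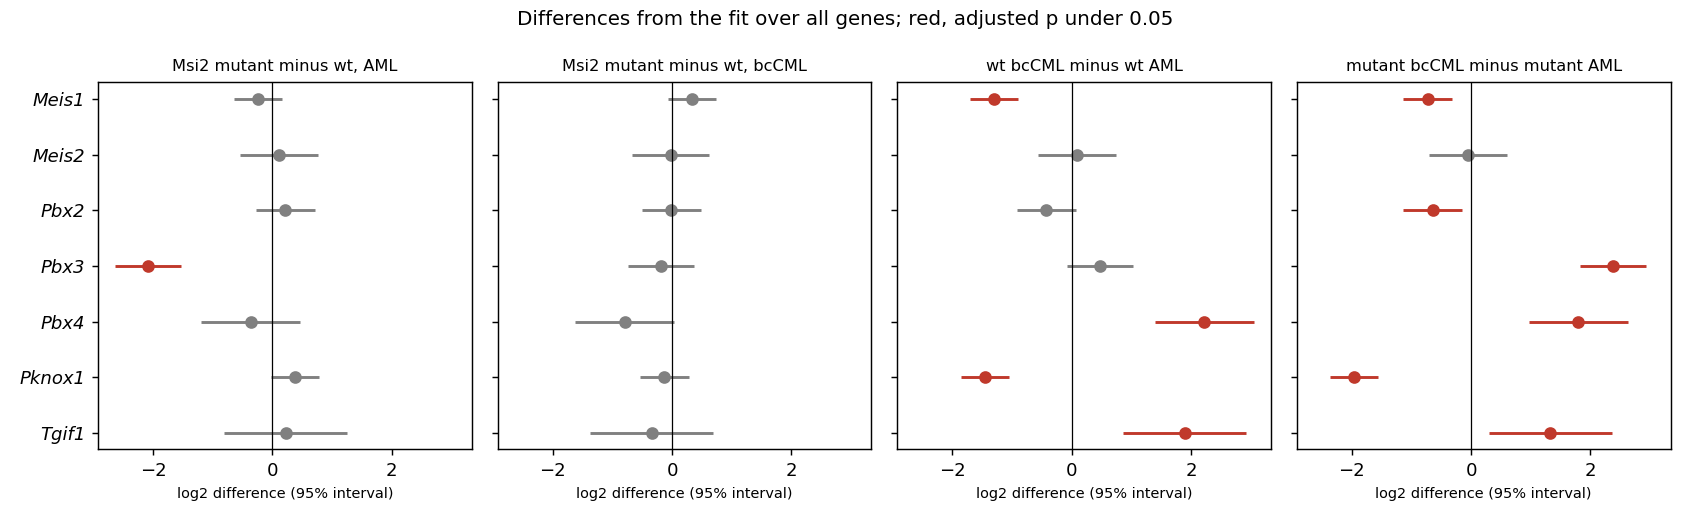
Log2 differences of the 7 tested members (points) with 95% intervals from the fit over all genes, for loss of Msi2 in AML and in bcCML and for bcCML against AML within each genotype. Red marks an adjusted p under 0.05. In the Msi2 comparisons only Pbx3 in AML is red, and in the comparisons of the leukaemias 4 members are red in wild-type and 6 in mutant cells.

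The leukaemias themselves differed more than the genotypes. Among wild-type cells, Pbx4 and Tgif1 were higher in bcCML, 2 of 7 members where 17.7% of genes were higher, and Meis1 and Pknox1 were lower, 2 of 7 where 19.3% were. Of 15 member probe sets, 9 passed, where 33.5% of all tested probe sets did. Among the 9 is the dimmest Pknox1 probe set, which was above 16 units in AML alone and so had to differ to be tested. Arrays of the leukaemias did not overlap for 6 of 7 members, Meis2 being the exception, where 52.4% of genes were so parted. A large share of all genes thus differed in this comparison, and the members' counts are read against that background.

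Meis1 was 2.46-fold lower in wild-type bcCML, at 372 to 403 units, than in wild-type AML, at 890 to 1009 units. The log2 difference was -1.30 ± 0.18 (limma adjusted p = 0.000346), and its other probe sets gave -1.22 and -0.58, both past the threshold. Pknox1 was 2.73-fold lower, at 296 to 354 against 817 to 1032 units (-1.45 ± 0.18; limma adjusted p = 0.000175). Its middle probe set fell by 1.29 on the log2 scale. The dimmest Pknox1 probe set lay between 31.1 and 63.5 units on the 6 AML arrays and below 16 units on the 6 bcCML arrays, and adds no independent support. Pbx4 was 4.67-fold higher, at 310 to 973 units in bcCML against 93.4 to 138 in AML (2.22 ± 0.37; limma adjusted p = 0.00111). Without the high bcCML array 1 the value was 1.79 and kept its call (adjusted p = 0.00205). Tgif1, with a single probe set, was 3.72-fold higher, at 136 to 197 against 28.3 to 93.8 units (1.89 ± 0.46; limma adjusted p = 0.00899). Wild-type AML array 1 was the highest of the AML arrays for Tgif1. Pbx2 (1269 to 1492 against 1736 to 1866 units) and Pbx3 (3886 to 4046 against 1983 to 3519 units) did not overlap between the leukaemias either, but did not pass (adjusted p = 0.171 and 0.163). Without AML mutant array 1, the wild-type difference of Pbx2 passed (-0.42; adjusted p = 0.0284).

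Among Msi2 mutant cells the same 4 members differed in the same directions, in arrays other than those just described but with the same shared estimate of spread. Pbx4 was 3.47-fold and Tgif1 2.51-fold higher in mutant bcCML, and Meis1 was 1.66-fold and Pknox1 3.89-fold lower (limma adjusted p = 0.00308, 0.038, 0.00843 and 1.62e-05). Pbx3 was 5.21-fold higher in mutant bcCML (3149 to 3825 against 536 to 927 units; 2.38 ± 0.25, limma adjusted p = 3.62e-05), a comparison that shares its AML arrays with the fall described above. Pbx2 was 1.56-fold lower (-0.64 ± 0.22; limma adjusted p = 0.038). Thus 3 of 7 members were higher, where 23.2% of genes were, and 3 of 7 lower, where 21.9% were, with 11 of 15 member probe sets called, again counting the dimmest Pknox1 one, where 42.5% of all were, and 6 of 7 members without overlap where 55.5% of genes were. The calls of Pbx2 and Tgif1 were close to the threshold. Pbx2 lost its call without any one of 6 arrays, namely AML wild-type array 1 (adjusted p = 0.0532), AML mutant array 1 (0.0772, with a difference of -0.35), bcCML wild-type arrays 2 and 3 (0.0502 and 0.0523) and bcCML mutant arrays 1 and 3 (0.113 and 0.0864). Tgif1 lost it without AML mutant array 1 or 2 (0.125 and 0.0546), the first wild-type bcCML array (0.0502) or either of bcCML mutant arrays 2 and 3 (0.137 and 0.0611). Both lost it with the replicate number as a block (0.0663 and 0.0821) and with no filter on dim values (0.0653 and 0.0886), and Pbx2 also when the mutant arrays were fitted alone (0.118). The second Pbx4 probe set differed by 1.13 ± 0.63 and did not pass here (adjusted p = 0.176). Nor did 1 of the 3 probe sets of Meis1 (-0.27 ± 0.16, adjusted p = 0.203) and 1 of the 3 of Pbx2 (-0.21 ± 0.16, adjusted p = 0.307), although both genes were called by their brightest probe set.

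Markers of mature lineages moved with these differences. The summed level of 9 monocyte markers lay between 11532 and 46811 units on the 6 AML arrays and between 407 and 843 on the 6 bcCML arrays. All 3 arrays of a group were above 16 units for 8 of the 9 in both AML groups, 4 in wild-type bcCML and 3 in mutant bcCML, with Csf1r, Cd14, Itgam and Irf8 below 16 units throughout bcCML. Fcgr1 of the same list went the other way, at 4.68 to 9.04 units in AML and 16.3 to 54.2 in wild-type bcCML. The 5 neutrophil markers summed to between 30314 and 74506 units in AML and between 179 and 3011 in bcCML. Megakaryocyte markers, 5 in number, summed to between 29.4 and 211 units in AML and between 3852 and 11388 in bcCML, and 4 erythroid markers to between 24.5 and 32.0 and between 1218 and 2834 units. Pf4, Ppbp and Itga2b, the last an integrin chain of megakaryocytes, stayed near the floor in AML (4.49 to 17.7 units). The other markers of that list, Gp1bb and Gp9, reached 127 and 66.4 units on AML mutant array 1. Gp1bb overlapped between the leukaemias, at 27.9 units on bcCML mutant array 2. Pf4 carried the bcCML sum (2930 to 8670 units), and the erythroid marker Hba-a1 stayed at the floor on every array. The part of these lineages in the levels of Meis1, Pknox1, Pbx4 and Tgif1 was not tested.

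The promoters of Meis1 and Pbx4 are shown because these members differed in opposite directions between the leukaemias, in both genotypes. The RefSeq promoter table (GRCm38.p6) held 6 of the 8 members and reaches from 250 bases before to 50 after the start. Capitals mark CCAAT boxes, read as CCAAT or, on the other strand, ATTGG. Meis1 lies at chr11:19018920-19019219 (minus strand) and Pbx4 at chr8:69832374-69832673 (plus strand), both written 5′ to 3′ along the gene.
Meis1: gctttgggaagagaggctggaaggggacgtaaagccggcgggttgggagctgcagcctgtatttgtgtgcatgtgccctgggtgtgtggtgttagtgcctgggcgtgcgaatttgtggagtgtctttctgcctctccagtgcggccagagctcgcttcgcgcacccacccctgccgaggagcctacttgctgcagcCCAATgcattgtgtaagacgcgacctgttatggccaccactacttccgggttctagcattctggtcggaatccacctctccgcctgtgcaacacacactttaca
Pbx4: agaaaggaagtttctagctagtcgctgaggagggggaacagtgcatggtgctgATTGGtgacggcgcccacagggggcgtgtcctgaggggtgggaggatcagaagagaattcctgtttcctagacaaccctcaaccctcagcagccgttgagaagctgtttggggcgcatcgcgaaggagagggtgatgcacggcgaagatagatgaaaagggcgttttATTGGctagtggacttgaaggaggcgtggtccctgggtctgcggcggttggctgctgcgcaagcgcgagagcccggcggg
On both strands, the Meis-type letters TGACAG, the Pbx-Hox letters TGATTNAT and the GC box GGGCGG were in neither window, and 19.2%, 3.22% and 35.7% of all 32851 promoters of this length held them. A CCAAT box was in 37.4% of promoters. It stood at position -54 from the start in Meis1 and at -197 and -30, on the other strand, in Pbx4. Both windows had more G and C (58.3% and 59.3%) and more CG pairs (15 and 19) than the median promoter (52.7% and 7). A match or its lack describes these letters alone.

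Meis2 and Meis3, the relatives of Meis1, gave little signal. The 1 tested Meis2 probe set lay between 37.9 and 84.7 units over all 12 arrays, with group means between 63.5 and 66.2 units, and did not pass in any comparison (limma adjusted p from 0.84 upward). Its other 3 probe sets stayed between 4.49 and 7.20 units. The Meis3 probe set lay near the floor, at no more than 8.58 units, so no change of Meis3 could be measured.

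The order of the 4 groups differed from gene to gene. For Pbx3 it ran from mutant AML through wild-type AML and mutant bcCML to wild-type bcCML, and the arrays of wild-type AML and mutant bcCML overlapped. Pknox1 ran from mutant bcCML through wild-type bcCML and wild-type AML to mutant AML, with overlap between the genotypes of each leukaemia. Meis1 ran from wild-type bcCML through mutant bcCML and mutant AML to wild-type AML, and Pbx4 from mutant AML through wild-type AML and mutant bcCML to wild-type bcCML, again with overlapping genotypes. Pbx2 was at 1337 ± 161 and 1344 ± 128 units in mutant and wild-type bcCML, 1793 ± 66.4 in wild-type AML and 2168 ± 815 in mutant AML. Tgif1 was at 52.1 ± 36.2 and 54.9 ± 18.7 units in wild-type and mutant AML, 138 ± 56.0 in mutant bcCML and 169 ± 30.6 in wild-type bcCML (SD, n = 3). For both, neighbours in the order overlapped within each leukaemia.

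Other genes with profiles like those of the members were found from the root-mean-square difference between log2 values over the 12 arrays, each gene first centred on its mean. Nearest to Pbx3 were Mfge8 (0.32), Npl (0.35) and Hacl1 (0.35), where the median gene lay at 1.13. Nearest to Meis1 were AB124611 (0.18), Tes3-ps (0.18) and Lamp1 (0.19), with a median of 0.71. Pknox1 was nearest to Baz1a (0.16), Brpf1 (0.17) and Rgs14 (0.17), Pbx2 to Ska1, Spen and Zfp212 (0.13 to 0.15), and Meis2 to Cmas, Sall1 and Nell1 (0.18 to 0.20). Pbx4 had Fbxo44, Ggact and Them6 (0.29 to 0.30), all of them below the filter on average in AML, and Tgif1 had more distant neighbours in Selenoi, Prps1 and B3galnt2 (0.44 to 0.47).

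Partner and target genes were read from lists of known biology. Of 39 Hox genes 13 were tested. For loss of Msi2 in AML, 164 of the 10817 genes tested passed by limma in either direction, and 1.14% of the 10817 were lower. In mutant AML 1 of the 13 was higher and 0 lower (median 0.02), namely Hoxb4, a regulator of stem cell self-renewal, at 75.4 units in wild-type and 227 in mutant cells (means of log2 turned back; 1.59 ± 0.33, limma adjusted p = 0.0472). That call was kept only without wild-type AML array 3 and ended without any one of the other 11 arrays (highest adjusted p = 0.162, without wild-type AML array 1). Hoxa9 measured 4261 and 4420 units there, with no call. In bcCML none of the 13 passed by limma, with Hoxc6 (0.65 ± 0.19, adjusted p = 0.364) and Hoxa3 (0.67 ± 0.22, adjusted p = 0.468) having the smallest p. Between the wild-type leukaemias 7 of 13 Hox genes were higher in bcCML and 1 lower, and between the mutant ones 9 and 1, where 17.7% and 19.3%, and then 23.2% and 21.9%, of all genes were higher and lower. Of the higher ones, Hoxc5, Hoxb6, Hoxc4 and Hoxb5 lay at means of 4.51 to 9.03 units in wild-type AML and 238 to 2972 in wild-type bcCML. These 4 passed the filter through bcCML and so had to differ. Among the 9 Hox genes above the filter in both leukaemias, 3 were higher and 1 lower between the wild-type and 5 and 1 between the mutant leukaemias. The lower one was Hoxa10, at 2081 units in wild-type AML and 365 in wild-type bcCML.

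Of 11 genes known to respond to Hoxa9 and Meis1, 0 passed in AML and 0 in bcCML by limma, with 3 positive estimates of 11 in each and medians of -0.19 and -0.16. In AML Flt3 (-3.09 ± 0.78) and Cd34 (-2.70 ± 0.69) had the smallest p, with adjusted p = 0.0926 and 0.0946. Without wild-type AML array 2 both passed (0.049 and 0.0171), and without AML mutant array 1 Flt3 did (0.0279). Lmo2 (0.59 ± 0.13, adjusted p = 0.186) and Flt3 (-1.51 ± 0.78, adjusted p = 0.641) had the smallest p in bcCML. Between the wild-type leukaemias Trib2, a pseudokinase, and Bcl2, an inhibitor of apoptosis, were higher in bcCML (6.91 and 149 units, 421 and 3594 units), and Lmo2, a bridging factor of blood transcription complexes, was lower (11088 and 3617 units). These were 2 higher and 1 lower of 11, where 17.7% and 19.3% of all genes were. Between the mutant leukaemias 4 of 11 were higher and 1 was lower, where 23.2% and 21.9% of all genes were. Trib2 was below the filter in AML, and without it 1 of 10 was higher between the wild-type and 3 of 10 between the mutant leukaemias.

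Of 10 tested genes for proteins known to bind Pbx, Meis or Tgif proteins, 0 passed for loss of Msi2 in either leukaemia, with medians of 0.15 in AML and -0.046 in bcCML. In AML the smallest p was that of Smad3, a signalling partner of Tgif1 (0.92 ± 0.34, limma adjusted p = 0.244), and in bcCML that of the corepressor gene Ctbp2 (-0.34 ± 0.17, adjusted p = 0.64). Between the wild-type leukaemias Rxra, the retinoid X receptor (384 and 36.5 units), the Pbx-binding protein gene Pbxip1 (1152 and 483 units) and Smad2 (515 and 327 units) were lower in bcCML and the coactivator gene Crtc1 (89.1 and 265 units) was higher, 3 and 1 of 10. Over all genes 19.3% were lower and 17.7% higher. Between the mutant leukaemias 5 of the 10 were lower and 1 higher, where 21.9% and 23.2% of all genes were. Of 9 other TALE genes with probe sets here, 2 were tested. Tgif2, the close relative of Tgif1, was higher in bcCML, like Tgif1, at 30.5 units in wild-type AML and 174 in wild-type bcCML (2.51 ± 0.35, limma adjusted p = 0.000339), and likewise in mutants (2.34 ± 0.35, adjusted p = 0.000407). Mkx did not pass in any comparison of the fit over all 12 arrays, with a smallest adjusted p of 0.0514. Over 21 alternatives the count of called genes of this list ran from 1 to 2 between the leukaemias, in either genotype. Mkx was above the filter on 3 AML arrays and on 0 of bcCML.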

How the data were processed

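Values were the authors' deposited intensity values, 1 per probe set and array, made with GCRMA per the submitters' processing notes; version and settings are not given in the sources used here. Of 45037 probe sets, 34945 had 1 gene symbol, 932 several and 9160 none in the annotation table. GCRMA presses dim probe sets onto a floor, so changes of dim genes are understated. Log2 was taken without a pseudocount. Among the probe sets above log2 of 4 on at least 3 arrays, the one brightest on average stood for its gene, giving 10817 genes. Group means were fitted with limma 3.58.1 (R 4.3.3) over all 12 arrays (8 residual and 2.19 prior degrees of freedom), two-sided, with Benjamini-Hochberg adjusted p over all genes and a threshold of 0.05. The fit was tested on simulated data with 100 genes changed at each size. The simulated noise was normal, with the same spread for a gene in all groups. The shares called may not hold for genes such as Pbx3, whose spread differed between the leukaemias. Of changes of 1 on the log2 scale it called 37% in AML, 35% in bcCML and 9% for the difference of the effects. Of changes of 2 it called 83%, 86% and 67%. A member without a call can therefore still have changed. Only 3 arrays per group limit the precision. Correlations between replicates ran from 0.938 to 0.981, and no pair of arrays shared more than 14.7% identical values.

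The members and lists were chosen with earlier results of these data known. The text names every member, the 3 nearest profiles of each, and up to 4 genes per list and comparison past the threshold (up to 2 with the smallest p where none passed). Gata2 and the mature lineage markers were singled out after their values were seen. Same-numbered arrays deviated together in bcCML (correlations of 0.396, 0.364 and 0.278) but not in AML (-0.0552, -0.121 and -0.0302). The pairing in bcCML comes from the data, not from a stated design. Alternatives covered the filter, the probe set rule, a pseudocount, quantile normalization, the arrays fitted, the moderation of the spread, the replicate block and leaving out each array.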

Additional observations from a re-analysis of the deposited data

How the results depend on the processing

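Apart from leaving out arrays, 364 member values were recomputed (a member, a comparison and an alternative): 353 kept their direction and side of the threshold, 8 lost their call and 3, none of them called, changed sign under quantile normalization (Meis2 in bcCML to 0.051, Pbx2 in bcCML to 0.017, Meis2 between the mutant leukaemias to 0.049). Of the 107 recomputed values that were called in the fit over all 12 arrays, 99 kept their call. The count of called members fell from 1 to 0 for the average Msi2 effect with no filter and with the replicate block. In AML it fell from 1 to 0 with the AML arrays alone. Between the mutant leukaemias it fell from 6 to 4 with no filter and with the block, and to 5 with only the mutant arrays. The block changed the calls of Pbx3 for the average effect, and of Pbx2 and Tgif1 between the mutant leukaemias, and no other member call. On leaving out each array the count ran from 0 to 1 for the average effect, from 0 to 1 for the difference of the effects, from 4 to 5 between the wild-type and from 4 to 6 between the mutant leukaemias. Of the 504 member values recomputed in this way 24 changed sign, none of them called.

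Their ranges on the log2 scale were as follows. In AML, Meis2 ran from -0.22 to 0.36, Pbx2 from -0.078 to 0.37 and Tgif1 from -0.11 to 0.75. In bcCML, Meis2 ran from -0.22 to 0.079 and Pbx2 from -0.10 to 0.075. For the average effect, Meis1 ran from -0.044 to 0.14, Meis2 from -0.12 to 0.17, Pbx2 from -0.044 to 0.18 and Tgif1 from -0.23 to 0.20. For the difference of the effects, Meis2 ran from -0.39 to 0.19, Pbx2 from -0.38 to 0.068 and Pbx4 from -0.82 to 0.0043. Between the leukaemias, Meis2 ran from -0.25 to 0.33 in wild-type and from -0.25 to 0.057 in mutant cells. Over all genes, the AML count of 164 was 105 with no filter, 63 with the block and from 43 to 182 without 1 array. The bcCML count of 15 was 25 with the pseudocount, 8 with the stricter filter or the intensity trend, 9 with mean probe sets, 27 with the block and from 7 to 22 without 1 array; both counts were 0 with only the arrays of that leukaemia. The count of 51 for the average effect was 84 with the trend, 3 with the block and from 4 to 122 without 1 array. The count of 0 for the difference of the effects was 5 with no filter, 4 with the stricter filter or quantile normalization, 6 with every probe set, 3 with the pseudocount, 1 with the block and from 0 to 21 without 1 array. The floor limits what can be said of Meis3 and of the dim Meis2 and Pknox1 probe sets.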
